A study of Mus musculus with 42 samples.

Results

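The 9 genes described here were chosen by name: the catalytic subunits of cAMP-dependent protein kinase (PKA) Prkaca and Prkacb, its regulatory subunits Prkar1a, Prkar1b, Prkar2a and Prkar2b, the protein phosphatase 1 (PP1) inhibitors Ppp1r1b and Ppp1r2, and Arpp21. All 9 of 9 were measured, by 30 Affymetrix probe sets annotated to them alone, among 18193 genes with a named probe set. Each gene was read from its probe set of highest mean signal, and the other probe sets are given where they differ. Values are log2 signals, so a fold is the power of 2 of a difference, and signals of different probe sets are not comparable with each other.

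PKA is a tetramer in which a pair of regulatory subunits holds a pair of catalytic subunits inactive until cAMP binds. The regulatory subunits set where the kinase sits, since type II subunits (Prkar2a and Prkar2b) bind anchoring proteins (AKAPs) with high affinity. In striatal projection neurons, dopamine and adenosine receptors of particular subtypes raise cAMP, phosphodiesterase 10A (PDE10A) degrades it, and PKA then phosphorylates DARPP-32, the product of Ppp1r1b, which becomes an inhibitor of PP1. Ppp1r2 encodes inhibitor-2, which binds the catalytic subunit of PP1 and is regulated by phosphorylation by other kinases. Arpp21 encodes ARPP-21, a PKA substrate of these neurons that binds calmodulin when phosphorylated, and longer RNA-binding isoforms.

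Microdissected, snap-frozen striatum (STR) and hippocampus (HPC) of C57BL6 mice were profiled on 42 arrays. The striatal groups were mice labelled PDE10A knockout (KO) given a PDE10 inhibitor (PDE10i, 4 arrays), KO given vehicle (Veh, 5), wild type (WT) given PDE10i (6) and WT given Veh (5). The hippocampal groups, in the same order, had 5, 5, 6 and 6 arrays. The inhibitor, its dose and its timing, the age of the mice and the construction of the knockout are not named by the labels, nor do they state that arrays came from separate animals. The p-values therefore reflect variation among these arrays alone, part of which may be technical, and the number of arrays limits the precision.

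Several arrays stood apart. A score over 15 genes of chromosome 17 other than Pde10a, chosen in the other region and scaled so that the median WT Veh array is 0 and the median KO PDE10i array is 1, put 4 striatal arrays on the side opposite to their genotype label: KO Veh 25 (0.10) and WT PDE10i 13, 14 and 15 (0.59, 0.79 and 0.54). In hippocampus it did so for KO Veh 25 and 26 (0.00 and 0.11) and WT PDE10i 12 and 14 (1.04 and 0.79). Numbers 25 and 14 were thus on the opposite side in both regions. For numbers 12, 13, 15 and 26 the regions disagreed, with 0.03, 0.59, 0.54 and 0.80 in striatum and 1.04, 0.23, 0.02 and 0.11 in hippocampus. Whether a shared number marks the same mouse is not stated. None of the 9 genes lies on chromosome 17. The targeted gene, Pde10a, did not check the labels: its striatal signal averaged 12.42 ± 0.40 in KO PDE10i, 12.35 ± 0.22 in KO Veh, 12.49 ± 0.25 in WT PDE10i and 12.32 ± 0.26 in WT Veh (SD), and whether its probe set lies in the deleted part is not known here. The 6 measured markers of striatal projection neurons averaged 11.73 to 12.03 over the striatal groups, against 6.98 to 7.10 over the hippocampal groups. The mean of 8 glutamatergic neuron markers of cortex and hippocampus varied between striatal arrays. It was 7.61 ± 1.05 in KO PDE10i, 7.48 ± 0.19 in KO Veh, 6.38 ± 0.54 in WT PDE10i and 7.33 ± 0.79 in WT Veh (SD), against 9.30 to 9.34 in the hippocampal groups. The mean of 6 vascular markers (Cldn5, Esam, Flt1, Kdr, Pecam1 and Rgs5) varied too. It was 8.21 ± 0.05 in KO PDE10i, 8.30 ± 0.26 in KO Veh, 8.50 ± 0.28 in WT PDE10i and 8.14 ± 0.10 in WT Veh striatum (SD), and 8.09 to 8.21 in the hippocampal groups. Results that rest on the doubted arrays are given with and without them.

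Sequences from RefSeq (GRCm38.p6) were read for the members. Promoter windows of 250 bases before to 50 after a transcript start were listed for 8 of the 9 genes, 29 windows in all, and none was listed for Ppp1r1b. They were searched on both strands for TGACG, the core of a cAMP response element, and for the palindrome TGACGTCA, which contains the shorter motif on each strand. TGACG or its reverse complement was found in 10 of the 29 windows, against 20.8% of 32851 windows of all genes, and TGACGTCA in 2 of 29, against 1.79%. Both windows with the palindrome belong to Prkar1a and overlap. Overlapping windows share sites, as these do and as the Arpp21 windows chr9:112217212-112217511 and chr9:112217302-112217601 do. Some sites are thus counted repeatedly, and Arpp21 and Prkar1a each had 3 windows with the shorter motif. Shown first are the windows of Ppp1r2 and Prkacb, which passed for PDE10i in WT striatum on the arrays whose score matched their label, and then a Prkar1a window with the palindrome. Ppp1r2 has 1 listed window, with neither motif; Prkacb has 3, and the printed one is the 1 with the shorter motif; Prkar1a has 6, of which 3 have the shorter motif and 2 the palindrome. Capitals mark the motif on either strand. A match in these letters is a description, not evidence of binding.
Ppp1r2, chr16:31275228-31275527, minus strand: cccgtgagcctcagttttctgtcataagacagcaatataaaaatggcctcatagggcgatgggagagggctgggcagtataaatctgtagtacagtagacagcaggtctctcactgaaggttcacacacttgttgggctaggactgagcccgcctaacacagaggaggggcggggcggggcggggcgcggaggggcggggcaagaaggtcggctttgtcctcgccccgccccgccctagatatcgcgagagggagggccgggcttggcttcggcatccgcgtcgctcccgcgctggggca
Prkacb, chr3:146812897-146813196, minus strand: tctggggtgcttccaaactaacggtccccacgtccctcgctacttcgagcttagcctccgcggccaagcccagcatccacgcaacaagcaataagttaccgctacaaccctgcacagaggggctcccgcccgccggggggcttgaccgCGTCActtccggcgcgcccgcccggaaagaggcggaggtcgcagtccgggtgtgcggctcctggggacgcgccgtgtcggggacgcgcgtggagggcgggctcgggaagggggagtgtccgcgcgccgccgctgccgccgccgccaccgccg
Prkar1a, chr11:109650699-109650998, plus strand: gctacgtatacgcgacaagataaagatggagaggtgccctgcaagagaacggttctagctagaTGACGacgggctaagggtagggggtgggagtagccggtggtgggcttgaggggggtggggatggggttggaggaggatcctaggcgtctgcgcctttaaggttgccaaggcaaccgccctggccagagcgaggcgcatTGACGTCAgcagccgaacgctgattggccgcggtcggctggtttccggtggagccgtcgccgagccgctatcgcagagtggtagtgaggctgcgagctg
The Arpp21 locus (chr9:112065091-112236288) also holds a microRNA on its own strand, mir-128-2. Its mature 3p product lies at chr9:112118644-112118664, with the seed (bases 2 to 8) in capitals. It is shown because the probe sets of this locus differ in their regional pattern below; its level was not measured.
mmu-miR-128-3p: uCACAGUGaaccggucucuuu

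The regions were compared first, over all 4 conditions. All 9 genes passed the threshold between striatum and hippocampus (limma, Benjamini-Hochberg adjusted p under 0.05 over all genes, 42 arrays in 8 groups), 5 higher and 4 lower. Since 53.9% of all 18193 genes passed, passing is not in itself a property of these genes; the sizes are what differ. The share of all genes whose regional ranges do not overlap was not counted, so the ranges below only describe the named genes. Bulk tissue cannot tell apart more cells of a type and more RNA per cell.

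Ppp1r1b (DARPP-32; chr11:98348406-98357796) differed most. Its signal was 11.66 to 12.94 over the 20 striatal arrays, median 12.64, against 7.87 to 8.79 over the 22 hippocampal arrays, median 8.38. The ranges were far apart. The difference was 4.19 ± 0.09 (SE), an 18.2-fold higher signal in striatum (adjusted p = 4.84e-33), and it ranked 14 among all genes by p-value. Arpp21 signal was 13.09 to 13.64 in striatum, median 13.51, against 9.63 to 11.59 in hippocampus, median 10.38. The regions did not overlap, and the spread was wider in hippocampus. The difference was 3.08 ± 0.10, or 8.46-fold (adjusted p = 1.24e-26). Ppp1r2 (inhibitor-2; chr16:31251541-31275277) was higher by 1.06 ± 0.05, or 2.09-fold (adjusted p = 3.96e-21), with 11.58 to 12.57 in striatum and 10.72 to 11.05 in hippocampus. For Ppp1r2, too, no striatal array reached down to the hippocampal range.

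Among the regulatory subunits of PKA, Prkar2b (RIIβ; chr12:31958450-32061648) stood apart from its relatives. It had 9.71 to 10.37 in striatum, median 10.20, against 7.74 to 8.59 in hippocampus, median 8.07. Every striatal array lay above every hippocampal one, by a mean of 2.01 ± 0.06, or 4.03-fold (adjusted p = 5.55e-27). The paralogous type II subunit Prkar2a (RIIα; chr9:108692143-108750444) differed in the opposite direction, with 8.51 to 9.26 in striatum against 8.91 to 9.35 in hippocampus, a difference of -0.26 ± 0.05 (adjusted p = 5.44e-06). The type I subunits were lower in striatum as well: Prkar1a (RIα) by a log2 difference of -0.18 ± 0.05 (adjusted p = 0.00272) and Prkar1b (RIβ, a largely neuronal subunit; chr5:139017304-139150703) by -0.27 ± 0.06 (adjusted p = 6.56e-05). For these 3 subunits the regional ranges overlapped. The 3' minus 5' Gapdh control difference, a measure of RNA integrity, averaged 0.26 to 0.39 in the striatal groups and 0.15 to 0.23 in the hippocampal groups. Prkar1a deviations from the group means had r = -0.893 with it over the 20 striatal arrays, as a description. The part of RNA integrity in the regional difference of Prkar1a was not tested.

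The catalytic subunits split in the same way. Prkacb (Cβ; chr3:146729579-146812946) was 1.52-fold higher in striatum, 11.66 to 12.24 against 11.05 to 11.98 in hippocampus, a difference of 0.60 ± 0.06 (adjusted p = 4.93e-12). A single hippocampal array, WT PDE10i 13, lay within the striatal range. Prkaca (Cα; chr8:83972978-83996444) was slightly lower in striatum, 10.32 to 10.66 against 10.48 to 10.88, a difference of -0.15 ± 0.03 (adjusted p = 1.29e-05). By the probe sets of highest mean, the striatum thus had more signal for Cβ and RIIβ and slightly less for the other 4 subunits.

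**Figure D1:**
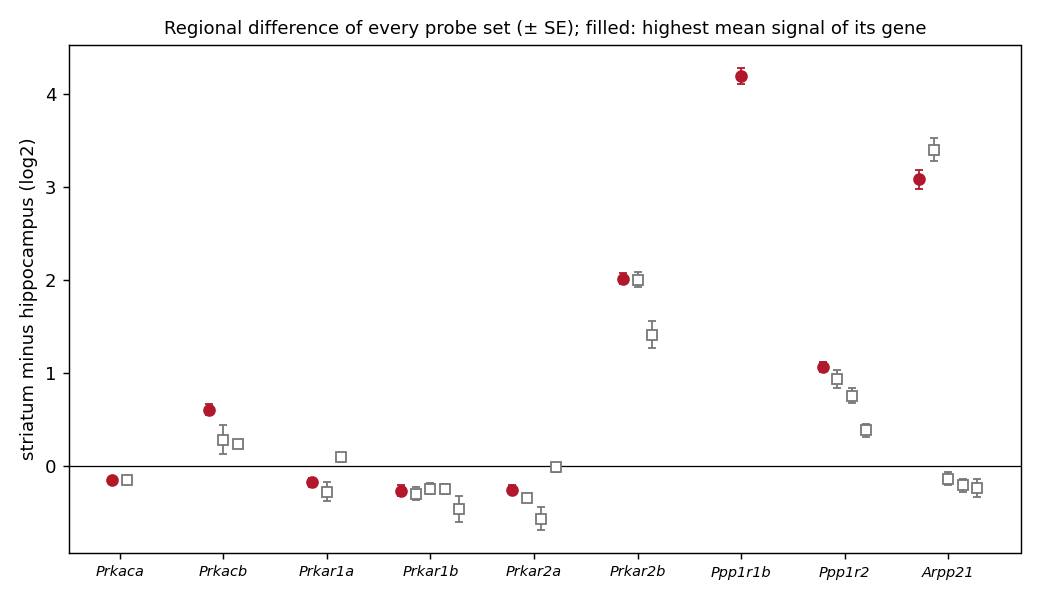
Log2 difference, striatum minus hippocampus (vertical axis, ± SE, limma over 42 arrays), for each of the 30 probe sets of the 9 genes; filled circles are the probe sets of highest mean signal and open squares the others. Ppp1r1b (4.19), Prkar2b (2.01) and Ppp1r2 (1.06) lie well above 0, and Arpp21 has probe sets at 3.08 and 3.40 beside 3 slightly below 0.

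The probe sets of a gene mostly had the same direction. Of the 30, 26 passed between the regions when each probe set was tested as a feature, against 51.3% of all 34945. The 3 probe sets of Prkar2b differed by 2.01 ± 0.06, 2.00 ± 0.08 and 1.41 ± 0.15, and the 4 of Ppp1r2 by 1.06 ± 0.05, 0.93 ± 0.10, 0.75 ± 0.08 and 0.38 ± 0.07. The 5 probe sets of Prkar1b were all lower in striatum, by -0.25 to -0.47. The probe set of Prkar1a with the lowest signal differed by 0.09 ± 0.05 and did not pass (adjusted p = 0.116).

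Arpp21 was the clearest exception. Probe sets 1424248_at and 1451280_at were higher in striatum by 3.08 ± 0.10 and 3.40 ± 0.12 (adjusted p = 1.98e-26 and 1.29e-24). Probe sets 1419028_at and 1440429_at of the same gene were lower by log2 differences of -0.21 ± 0.07 and -0.24 ± 0.10 (adjusted p = 0.0113 and 0.0345), and 1442121_at differed by -0.14 ± 0.07 (adjusted p = 0.0908). Probe set 1424248_at averaged 13.45 ± 0.18 in KO PDE10i, 13.54 ± 0.09 in KO Veh, 13.50 ± 0.10 in WT PDE10i and 13.37 ± 0.19 in WT Veh striatum (SD). Its hippocampal means in the same order were 10.28 ± 0.40, 10.30 ± 0.43, 10.58 ± 0.57 and 10.38 ± 0.23. In contrast, 1419028_at averaged 9.39 ± 0.37, 9.34 ± 0.09, 9.10 ± 0.15 and 9.11 ± 0.30 in the striatal groups and 9.41 ± 0.20, 9.45 ± 0.23, 9.46 ± 0.28 and 9.47 ± 0.19 in the hippocampal groups. The locus thus gave a large striatal excess in 2 of its 5 probe sets and differences of -0.14 to -0.24 in the other 3. Which transcript each probe set detects was not tested.

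**Figure D2:**
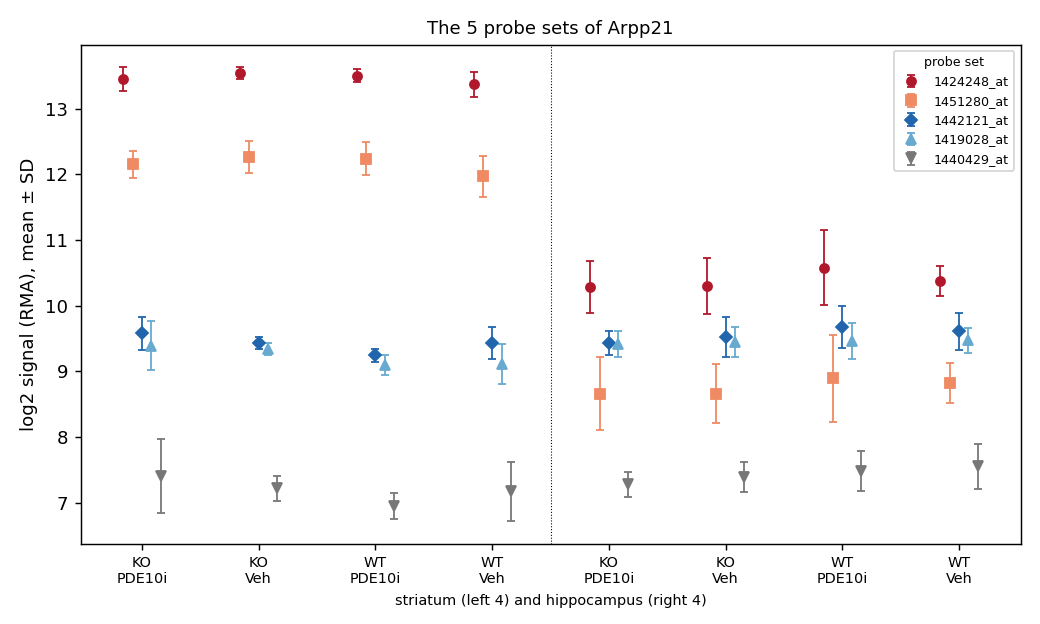
Log2 signal (mean ± SD over the arrays of a group) of the 5 Arpp21 probe sets in the 4 striatal groups (left) and the 4 hippocampal groups (right). Probe sets 1424248_at and 1451280_at are higher in striatum by 3.08 and 3.40, whereas the regional differences of the other 3 lie between -0.24 and -0.14.

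The regional difference of each gene had the same sign in all 4 conditions. It was 3.97, 4.11, 4.43 and 4.24 for Ppp1r1b in KO PDE10i, KO Veh, WT PDE10i and WT Veh, 3.17, 3.24, 2.92 and 2.99 for Arpp21, and 1.93, 1.97, 2.17 and 1.98 for Prkar2b. Ppp1r2 varied more, with 0.92 ± 0.11, 1.06 ± 0.10, 1.49 ± 0.09 and 0.79 ± 0.10 (SE) in the same order. For Prkacb the difference was 0.51 to 0.68 at its probe set of highest mean. For Prkaca, Prkar1a, Prkar1b and Prkar2a it was below 0 in all 4 conditions. Some of these values were small beside their error (SE). Prkar1a was at -0.10 ± 0.10 in KO Veh and -0.08 ± 0.11 in KO PDE10i. Prkaca was at -0.07 ± 0.05 in WT PDE10i and Prkar1b at -0.16 ± 0.12 in KO PDE10i. Prkar2a was at -0.28 to -0.24. Without the 8 arrays on the side opposite to their label, the difference was 4.12 for Ppp1r1b, 3.09 for Arpp21, 2.02 for Prkar2b and 1.08 for Ppp1r2, and all 9 genes still passed.

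The inhibitor comparison in WT striatum asked what PDE10i changed where its target was labelled intact. Ppp1r2 was the member that rose. It had 12.57, 12.56, 12.53, 12.14, 12.09 and 12.31 on WT PDE10i arrays 10 to 15, against 11.86, 11.58, 11.73, 11.69 and 11.65 on WT Veh arrays 1 to 5. The groups did not overlap, though the share of all genes without overlap in this comparison was not counted. The difference was 0.67 ± 0.13 (SE), or 1.59-fold (limma adjusted p = 0.0356), and it ranked 21 among all genes by p-value. It was 1 of 9 members to pass, against 0.181% of all genes (33 of 18193).

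The remaining probe sets of Ppp1r2 had the same sign, with 0.90 ± 0.25, 0.83 ± 0.19 and 0.40 ± 0.18, but none of the 4 passed when every probe set was tested as a feature (adjusted p = 0.0574 to 0.608). The call was near the threshold: leaving out 1 array at a time gave differences of 0.62 to 0.72 with adjusted p of 0.0276 to 0.118, and the call was lost without any 1 of WT Veh 1 to 5 or WT PDE10i 10, 11, 12 or 15. The glutamatergic marker mean moved with this comparison, at 5.88 to 7.43 in WT PDE10i against 6.14 to 7.99 in WT Veh arrays. All 8 of its genes had negative differences, median -1.01, and none passed. With that mean as a covariate the Ppp1r2 difference was 0.52 ± 0.13 (adjusted p = 0.198). Across the 20 striatal arrays, Ppp1r2 deviations from the group means had r = -0.464 with it, as a description.

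The vascular markers had differences of the opposite sign. Their mean was 8.67, 8.75, 8.80, 8.28, 8.12 and 8.42 on WT PDE10i arrays 10 to 15, against 8.09, 8.28, 8.03, 8.10 and 8.21 on WT Veh arrays 1 to 5. The inhibitor arrays with the highest Ppp1r2 signal were those with the highest vascular mean. All 6 of 6 markers had positive differences, median 0.34, with 3 at an unadjusted p under 0.05 and 0 past the threshold (limma). Rgs5, a pericyte gene, averaged 11.15 in WT PDE10i and 10.46 in WT Veh. With the vascular mean as a covariate, an alternative chosen after seeing the data, the Ppp1r2 difference was 0.36 ± 0.11 and did not pass (adjusted p = 0.422). Ppp1r2 deviations had r = 0.778 with that mean over the 20 striatal arrays, and those of Prkacb had r = 0.877, as descriptions.

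No other member passed in WT striatum with PDE10i. Prkar2b was the next, at 10.28, 10.28, 10.37, 10.33, 10.26 and 10.27 in WT PDE10i against 9.90, 9.98, 10.21, 10.29 and 9.71 in WT Veh arrays, a difference of 0.28 ± 0.10 (adjusted p = 0.308, unadjusted p = 0.00912). The WT PDE10i arrays lay close together and inside or just above the upper end of the WT Veh range. Ppp1r1b differed by 0.18 ± 0.15, Arpp21 by 0.13 ± 0.09, Prkaca by 0.09 ± 0.06, Prkar2a by 0.08 ± 0.11, Prkar1a by 0.06 ± 0.12 and Prkar1b by -0.17 ± 0.13, with adjusted p of 0.701 or more. The median over the 9 members was 0.13, and 8 of 9 were positive, beside a median of 0 over all genes. Of the striatal projection markers 5 of 6 were positive, with the same median of 0.13. The share of all genes with a positive difference was not counted.

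Prkacb split the WT PDE10i arrays. It had 12.24, 12.20 and 12.24 on arrays 10, 11 and 12, whose chromosome 17 scores matched the WT label, and 11.96, 11.76 and 11.97 on arrays 13, 14 and 15, whose scores did not. The WT Veh arrays had 11.87, 11.85, 11.92, 11.88 and 11.89. Over all 6 inhibitor arrays the difference was 0.18 ± 0.09 (adjusted p = 0.582). These values are of the Prkacb probe set with the highest mean. Its probe set 1420610_at averaged 8.14 ± 0.67 in WT PDE10i and 8.04 ± 0.55 in WT Veh striatum (SD). Without the 4 striatal arrays on the side opposite to their label it was 0.35 ± 0.06 (adjusted p = 0.00315), and Ppp1r2 was 0.85 ± 0.10 (adjusted p = 1.37e-04). In that smaller set 2 of 9 members passed, against 4.23% of all genes, with 3 WT PDE10i arrays left. KO Veh array 25, with a score on the WT side, had 12.24 for Prkacb and 12.54 for Ppp1r2, in the range of WT PDE10i arrays 10 to 12, whereas the other KO Veh arrays had 11.66 to 11.79 and 11.84 to 11.98. These 4 high arrays were also the 4 with the highest vascular means of the 20, 8.67 to 8.80. With that mean as a covariate over all arrays, the Prkacb difference was -0.06 ± 0.07 (adjusted p = 1). The part of the labels in these differences was not tested.

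**Figure D3:**
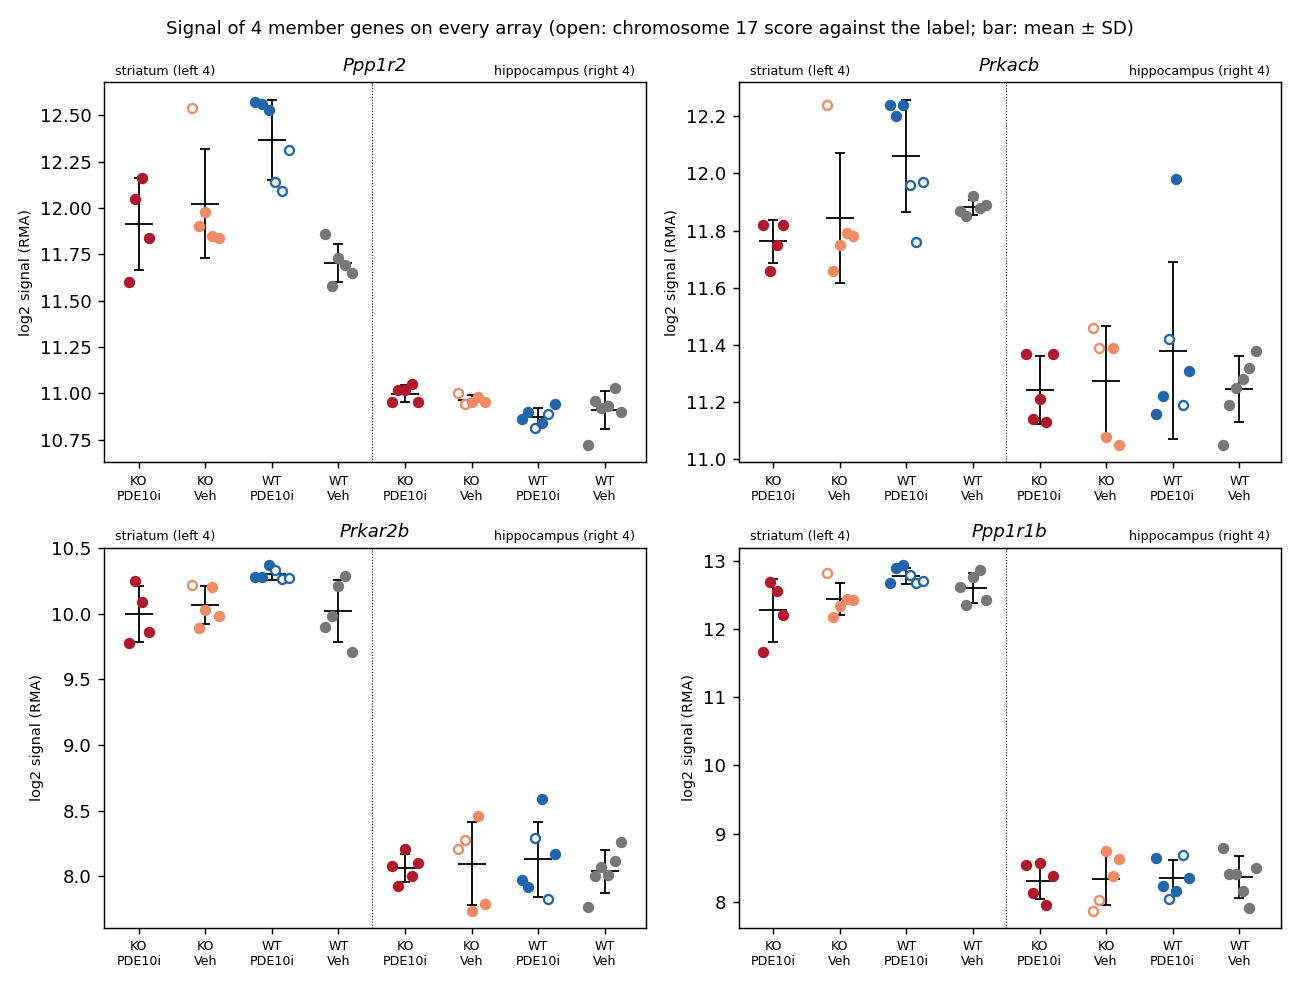
Log2 signal on every array for Ppp1r2, Prkacb, Prkar2b and Ppp1r1b, by group (striatum left of the dotted line, hippocampus right); bars are mean ± SD and open circles are arrays whose chromosome 17 score goes against the label. Ppp1r2 lies at 12.09 to 12.57 in WT PDE10i striatum, above the 11.58 to 11.86 of WT Veh, and Prkacb is highest on WT PDE10i arrays 10 to 12 and KO Veh array 25.

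The same treatment was then compared in mice labelled KO, where the inhibitor's target should be missing. In KO striatum, PDE10i against Veh passed for 0 of 9 members and for 0% of all genes (limma; 0 members and 257 genes at an unadjusted p under 0.05). Ppp1r2 had 11.60, 12.05, 12.16 and 11.84 in KO PDE10i against 12.54, 11.90, 11.98, 11.85 and 11.84 in KO Veh arrays, a difference of -0.11 ± 0.14. The groups overlapped. Without KO Veh 25 the sign turned, to 0.02 ± 0.12 (adjusted p = 1). The effect in WT minus that in KO striatum was 0.77 ± 0.19 for Ppp1r2 (adjusted p = 0.352); 0 of 9 members and 0% of genes passed, with 2 members and 1346 genes at an unadjusted p under 0.05. Without the 4 doubted striatal arrays, this difference of effects was 0.83 ± 0.14 (adjusted p = 0.00812), and Ppp1r2 was the 1 member to pass, against 0.868% of genes. The WT PDE10i arrays then left, 10 to 12, had vascular means of 8.67 to 8.80, and KO Veh 25, at 8.75, was left out. The WT Veh arrays were at 8.03 to 8.28, KO PDE10i at 8.16 to 8.26 and the other KO Veh at 8.12 to 8.26. Over all striatal arrays the same difference of effects was positive for 6 of 6 vascular markers, median 0.43, with 3 at an unadjusted p under 0.05, and for 0 of 8 glutamatergic markers, median -1.22. With the vascular mean as a covariate it was 0.39 ± 0.15 for Ppp1r2 (adjusted p = 1).

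Under vehicle, mice labelled KO and WT showed no member past the threshold in striatum. Of the 9 members 0 passed, against 0.137% of genes (25; limma, with 1 member and 1081 genes at an unadjusted p under 0.05). Ppp1r2 had the largest difference, 0.32 ± 0.13 (adjusted p = 0.744). It had 12.54, 11.90, 11.98, 11.85 and 11.84 in KO Veh against 11.86, 11.58, 11.73, 11.69 and 11.65 in WT Veh arrays, and the groups overlapped. Without KO Veh 25 and the other doubted arrays the Ppp1r2 difference was 0.19 (adjusted p = 0.750). Arpp21 differed by 0.17 ± 0.09, Ppp1r1b by -0.16 ± 0.15 and Prkacb by -0.04 ± 0.10. For Prkacb that value (adjusted p = 0.993) included KO Veh 25, at 12.24, above all 5 WT Veh arrays, at 11.85 to 11.92. The other 4 KO Veh arrays were at 11.66 to 11.79. The share of all genes whose groups separate once an array is set aside was not counted. Without the doubted arrays the Prkacb difference was -0.14 ± 0.05 (adjusted p = 0.515).

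Under inhibitor, 4 members were lower in KO than in WT striatum at an unadjusted p under 0.05, and 0 of 9 passed the threshold, as did 0% of genes (limma; 2216 genes at an unadjusted p under 0.05). Ppp1r1b had 11.66, 12.69, 12.56 and 12.20 in KO PDE10i against 12.67, 12.90, 12.94, 12.80, 12.68 and 12.71 in WT PDE10i arrays. KO PDE10i array 34 was the lowest of all striatal arrays. The difference was -0.51 ± 0.16 (adjusted p = 0.198). Ppp1r2 differed by -0.45 ± 0.14 (adjusted p = 0.195), Prkacb by -0.30 ± 0.10 (adjusted p = 0.218) and Prkar2b by -0.30 ± 0.10 (adjusted p = 0.225), whereas Prkar1b was at 0.25 ± 0.13. The 8 glutamatergic markers all had positive differences here, median 1.01, and 0 passed. On KO PDE10i array 34 their mean was 8.70, the highest of the striatal arrays, and its striatal projection marker mean was 11.17, the lowest. Without that array Ppp1r1b differed by -0.30 ± 0.13 (adjusted p = 0.582) and Prkar1b by 0.12 ± 0.13 (adjusted p = 0.892). Of the vascular markers 0 of 6 had positive differences, median -0.33, with 3 at an unadjusted p under 0.05 and 0 past the threshold. With their mean as a covariate, Prkacb differed by -0.10 ± 0.07, Ppp1r2 by -0.20 ± 0.11 and Ppp1r1b by -0.37 ± 0.17 (adjusted p = 0.983 for each).

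The calls in this contrast depended on the arrays. Without the 3 doubted WT PDE10i arrays and KO Veh 25, Prkacb was lower in KO by a log2 difference of -0.47 ± 0.06 (adjusted p = 2.3e-04) and Ppp1r2 by -0.64 ± 0.11 (adjusted p = 0.00182), so that 2 of 9 members passed, against 6.52% of genes. The WT PDE10i arrays then left, 10 to 12, had vascular means of 8.67 to 8.80, against 8.16 to 8.26 in KO PDE10i. The part of the vascular mean in these calls was not tested. With limma's array weights on all arrays, 3 of 9 passed, against 5.65% of genes: Ppp1r1b at -0.57 ± 0.14 (adjusted p = 0.0243), Ppp1r2 at -0.49 ± 0.12 (adjusted p = 0.0269) and Prkar2b at -0.36 ± 0.09 (adjusted p = 0.0291). KO PDE10i against WT Veh striatum had 0 of 9 members past the threshold, against 0.11% of genes (20; limma, 0 members and 1139 genes at an unadjusted p under 0.05). The member farthest from 0 there was Ppp1r1b at -0.33 ± 0.16 (adjusted p = 0.824). Without KO PDE10i 34 it was -0.12 ± 0.14 (adjusted p = 1), and Ppp1r2 was then the farthest, at 0.32 ± 0.15 (adjusted p = 0.862).

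**Figure D4:**
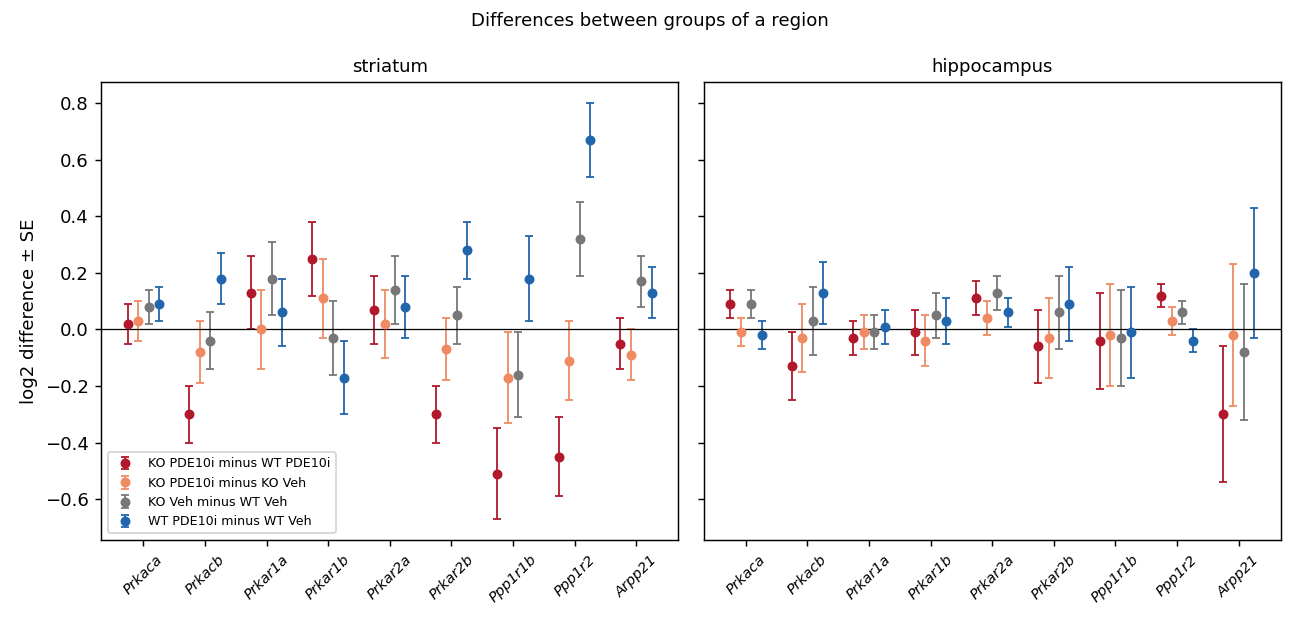
Log2 differences (± SE, limma, 4 groups of a region in a fit) of the 9 genes in striatum (left) and hippocampus (right) for KO PDE10i minus WT PDE10i, KO PDE10i minus KO Veh, KO Veh minus WT Veh and WT PDE10i minus WT Veh. The value past the threshold is that of Ppp1r2 for WT PDE10i minus WT Veh in striatum, 0.67; hippocampal Ppp1r2 differences lie between -0.04 and 0.12.

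In hippocampus, no member passed in any comparison. PDE10i in WT gave 0 of 9 and 0% of genes (limma; 0 members and 1948 genes at an unadjusted p under 0.05). The KO label under vehicle gave 0 of 9 and 0% (1 member and 1205 genes unadjusted), and PDE10i in KO 0 of 9 and 0% (0 and 695). The KO label under inhibitor gave 0 of 9, against 0.0055% of genes (1 gene; 1 member and 2836 genes unadjusted). KO PDE10i against WT Veh gave 0 of 9, against 0.033% (6 genes; 1 and 1333 unadjusted). The effect in WT minus that in KO gave 0 of 9 and 0% (0 and 2151 unadjusted).

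Ppp1r2 was tightly grouped in hippocampus. It had 10.95, 11.02, 11.02, 11.05 and 10.95 in KO PDE10i, 11.00, 10.94, 10.95, 10.98 and 10.95 in KO Veh, 10.86, 10.90, 10.81, 10.84, 10.89 and 10.94 in WT PDE10i, and 10.72, 10.96, 10.92, 10.93, 11.03 and 10.90 in WT Veh. All 22 values lay within 10.72 to 11.05, and the groups overlapped or nearly touched. PDE10i in WT gave a difference of -0.04 ± 0.04 (adjusted p = 0.781), and under inhibitor KO differed from WT by 0.12 ± 0.04 (adjusted p = 0.234). Prkar2a was the member farthest from 0 in relation to its error, at 0.17 ± 0.06 for KO PDE10i against WT Veh (adjusted p = 0.425). Arpp21, Prkacb, Prkar1b and Prkar2b were highest in hippocampus on the same array, WT PDE10i 13, with 11.59, 11.98, 13.04 and 8.59, against 9.63 to 10.92, 11.05 to 11.46, 12.36 to 12.75 and 7.74 to 8.46 on the other 21.

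The response of Ppp1r2 to the inhibitor was then compared between the regions. The PDE10i effect in WT striatum minus that in WT hippocampus was 0.70 ± 0.13 (limma over 42 arrays, adjusted p = 0.0107), rank 8 among all genes. It was 1 of 9 members, against 0.214% of genes (39), and it passed under 11 of 12 alternatives and all 23 omissions of 1 array. The exception was the vascular marker mean as a covariate, with 0.40 ± 0.11 (adjusted p = 0.338). This fit shares 1 estimate of the spread over both regions. The Ppp1r2 SD was 0.10 to 0.30 in the striatal groups and 0.03 to 0.10 in the hippocampal groups. Fitted on striatal arrays alone, the Ppp1r2 call in WT striatum was lost in most omissions, as given above. The vascular markers had positive values in the contrast between regions for 6 of 6, median 0.37, with 4 at an unadjusted p under 0.05 and 0 past the threshold. The glutamatergic markers were positive for 0 of 8, median -0.89. As separate features, 2 of the 30 probe sets passed, both of Ppp1r2 (0.70 ± 0.13 and 1.00 ± 0.20), against 0.123% of all probe sets. The other 8 members lay between -0.20 and 0.19. Without the doubted arrays of both regions the Ppp1r2 value was 0.88 ± 0.11 (adjusted p = 4.06e-06). The WT PDE10i striatal arrays then left, 10 to 12, had vascular means of 8.67 to 8.80, against 8.03 to 8.28 in WT Veh striatum. The part of the vascular mean in this value was not tested. The KO label effect in striatum minus that in hippocampus passed for 0 of 9 members, against 0.0495% of genes (9; limma, 0 members and 963 genes at an unadjusted p under 0.05).

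Other genes of the same pathway were read from lists of PP1 catalytic subunits, further PP1 inhibitors and targeting subunits, PKA inhibitor peptides, other cAMP effectors, AKAPs, relatives of the ARPPs and the kinases and phosphatases that act on DARPP-32. Of 63 listed genes 59 were tested. Between striatum and hippocampus 25 were higher and 18 lower, a median of 0.05, so that 43 of 59 passed, beside 53.9% of all genes. The 6 of smallest p were Ppp1r9a (neurabin, which targets PP1 to actin; 1.29 ± 0.04), Ppp1ca (a PP1 catalytic subunit; 1.07 ± 0.03), Phactr1 (a PP1- and actin-binding protein; 1.61 ± 0.05), Akap9 (1.62 ± 0.05), Ppp1r7 (a PP1 regulatory subunit; 1.03 ± 0.03) and Arpp19 (an inhibitor of PP2A when phosphorylated; 2.54 ± 0.10), all higher in striatum. Chosen after its value was seen, Pkib, which encodes a peptide inhibitor of the PKA catalytic subunit, was the lowest, at -1.53 ± 0.08 (adjusted p = 2.81e-19). The AKAPs went both ways, 6 of 14 higher and 5 lower. Of the 3 PP1 catalytic subunits 2 were higher, Ppp1ca and Ppp1cc, and Ppp1cb differed by -0.02 ± 0.03.

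In the comparisons of treatment and genotype label within a region, 0 of these 59 genes passed the threshold (limma). The share of all genes that passed was 0% to 0.181% by comparison, so a count of 0 does not set these genes apart. In WT striatum with PDE10i the smallest p was that of Ppp1r7, at 0.31 ± 0.08 (adjusted p = 0.133). Its effect in WT striatum minus that in WT hippocampus was 0.41 ± 0.09 (adjusted p = 0.0331), the 1 of 59 to pass, beside 0.214% of all genes.

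Genes whose striatal pattern was most like that of a member were ranked by Pearson's r of the deviations from group means over the 20 striatal arrays. These r values are descriptions: the arrays of a region may share dissection, RNA quality and processing, and the highest of 18193 values is large by selection. Ppp1r1b was closest to Rgs9 (r = 0.966), a regulator of G protein signalling of striatal neurons that is also among the 6 striatal markers, then to Inf2 (0.959) and Tgfa (0.946). In hippocampus the r with Rgs9 was -0.061. Prkar2b was closest to Cd4 (0.938), Lmo7 (0.932) and Bcl11b (0.922), a transcription factor of striatal projection neurons. Prkar1b was closest to Syn1 (0.954), Stx1a (0.952) and Dnm1 (0.950), all presynaptic vesicle genes, and had r = 0.898 with the glutamatergic marker mean. Prkar1a was closest to Chst10 (0.959), Ptbp2 (0.953) and Itm2b (0.948), and had r = -0.893 with the 3' minus 5' Gapdh control difference of the array, a measure of RNA integrity. Its lowest striatal value, 11.31 on WT Veh 4, was on the array with the largest such difference, 1.05.

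Ppp1r2 was closest to Shb (r = 0.926), Rps6ka5 (0.909), a kinase that phosphorylates CREB, and Gmnn (0.904). Prkacb was closest to Chd3 (0.952), AU023762 (0.942) and Opa1 (0.940), Arpp21 to Ryr3 (0.920), Tmem158 (0.920) and Cyld (0.917), Prkar2a to Usp10 (0.931), Arhgap39 (0.894) and Hspa1b (0.894), and Prkaca to Zc3h15 (0.828), Fgfr1 (0.803) and Elavl3 (0.793). Among the members, Prkar2b and Ppp1r1b were the most alike in striatum (r = 0.801), and Prkar1b ran opposite to both (-0.784 with Prkar2b and -0.710 with Ppp1r1b). Prkacb and Ppp1r2 had r = 0.715 in striatum and -0.007 in hippocampus. Prkaca had r of -0.486 to 0.550 with the other 8 in striatum.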

How the data were processed

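Affymetrix arrays of 42 samples were used. The authors deposited log2 values from RMA, as the submitters' processing notes name it (version not given in the sources used here), a method that subtracts background, normalizes quantiles and summarises probes, so that a change in total RNA per array cannot be seen. Array medians were 6.05 to 6.12. Of 45101 probe sets, 64 controls, 932 with several genes and 9160 with none were left out. The remaining 34945 gave 18193 genes, 9010 of them with several probe sets, each read from the probe set of highest mean; 34741 matched RefSeq (GRCm38.p6), used for names, loci and sequences. Groups came from the titles. limma 3.58.1 in R 4.3.3 (lmFit, eBayes, two-sided, Benjamini-Hochberg over all genes, threshold 0.05) fitted the 4 groups of a region together, or all 8 for contrasts between regions. Fits were tested on simulated data. Members, gene lists, the chromosome 17 score and the named genes (all members, Pde10a, at most 6 pathway genes by p, the 3 most alike genes per member) were chosen with earlier results of these data known. Alternatives changed the summary of probe sets, the filter on low signals, centring, the prior, array weights, covariates, the samples fitted and single arrays; the vascular covariate was added after seeing the data. Title numbers occur in both regions; over 20 pairs same-numbered arrays had r of -0.382 to 0.305, median -0.04, and were not treated as pairs.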

Additional observations from a re-analysis of the deposited data

Results flagged for a closer look

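In 5 of the 72 combinations of a member and a group, 1 array stood apart from the rest by Dixon's test, which by chance happens in about 1 of 20 groups. In KO Veh striatum, array 25 had 12.54 for Ppp1r2, against 11.84 to 11.98 on the other 4 arrays, and 12.24 for Prkacb, against 11.66 to 11.79. Its chromosome 17 score was 0.10, on the WT side, and its vascular marker mean, 8.75, was the highest of the group. In WT Veh striatum, array 4 had 11.31 for Prkar1a, against 11.96 to 12.16, and the largest 3' minus 5' Gapdh difference of the group (1.05). In WT PDE10i hippocampus, array 13 had 11.98 for Prkacb, against 11.16 to 11.42. In KO PDE10i hippocampus, array 35 had 10.88 for Prkaca, against 10.62 to 10.65. The part of these scores, means and differences in the values was not tested.

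The effect of PDE10i on Ppp1r2 differed between the regions by a test of the difference itself: in WT striatum minus in WT hippocampus it was 0.70 on the log2 scale (limma, adjusted p = 0.0107), and 0.40 with the vascular marker mean as a covariate (adjusted p = 0.338). The test shares 1 spread over both regions, with Ppp1r2 SDs of 0.10 to 0.30 in striatal and 0.03 to 0.10 in hippocampal groups.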

How the results depend on the processing

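The 9 regional differences passed under all 12 alternatives and 42 omissions of 1 array, and no called difference changed sign. In WT striatum with PDE10i, 1 member passed (Ppp1r2). The count was 0 with the mean of a gene's probe sets (Ppp1r2 0.70 ± 0.17, adjusted p = 0.135), 0 with every probe set as a feature (adjusted p = 0.0574), 0 with the glutamatergic or the vascular marker mean as covariate (Ppp1r2 0.52 and 0.36), 2 without arrays against the genotype label, and 0 to 1 over the omissions of 1 array. For KO against WT striatum under inhibitor, 0 members became 3 with array weights and 2 without arrays against the label; for the effect in WT minus that in KO striatum, 0 became 1 without them; for the regional difference in PDE10i effect, 1 became 0 with the vascular covariate (chosen after seeing the data; Ppp1r2 0.40, adjusted p = 0.338). The cause was not tested. Member counts elsewhere did not move by over 1.5 times.

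Counts over all genes moved more. Without arrays against the label, 33 genes became 769 for PDE10i in WT striatum, 25 became 145 for the KO label under vehicle, 0 became 1187 under inhibitor, 20 became 112 for KO PDE10i against WT Veh, 0 became 158 for the effect in WT minus KO, 39 became 785 for the regional difference in PDE10i effect and 9 became 34 for that of the KO label. With array weights these counts were 195, 87, 1027, 88, 1, 617 and 23, and with each group's array of highest Gapdh difference left out 86, 0, 531, 4, 10, 119 and 0. With the vascular covariate, 32, 129, 0, 143, 0, 12 and 35 genes passed in the same order. The other settings gave 10 to 21 for PDE10i in WT striatum where they moved it, 9 for the KO label under vehicle, 55 for KO PDE10i against WT Veh, 4 and 1 for WT minus KO, 23 for the regional difference in PDE10i effect and 3 for that of the KO label. Leaving out 1 array at a time gave 4 to 73, 8 to 82, 0 to 187, 1 to 18, 0 to 1, 19 to 154 and 2 to 28 genes for the 7 comparisons in the order above. In hippocampus the counts were at most 25 except with array weights, which gave 154 for PDE10i in WT and 658 for the KO label under inhibitor.

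With the title number as a fixed replicate block, 0 genes in place of 9 passed for the KO label effect between regions; the members past the threshold stayed at 9 between regions and 1 for the PDE10i effect (Ppp1r2 0.70 ± 0.14, adjusted p = 0.044). The data did not show a pairing of same-numbered arrays: 4 of 20 striatal arrays were most like their own number, and 6 of 20 pairs had r over 0.1. A low r between different tissues cannot exclude that both arrays of a number came from the same mouse. Within a region no number occurs in more than 1 group.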
